A study of Mus musculus with 2 samples.

Results

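The cytosolic ribosomal protein genes are the 86 of 31053 genes in the deposited feature table whose symbol starts with Rpl or Rps followed by a digit, together with Rplp0, Rplp1, Rplp2 and Rpsa. Symbols of the ribosomal S6 kinases (Rps6k) and symbols holding "-ps" were left out. Of the 86 members, 52 carry large-subunit symbols and 34 small-subunit symbols, and 9 of them are paralogs or a binding protein rather than core subunit genes (Rpl22l1, Rpl36al, Rpl7l1, Rpl39l, Rpl10l, Rpl3l, Rps27l, Rps27rt and Rps19bp1). In the cells kept for analysis 84 members had at least 1 UMI (a unique molecular identifier, which counts 1 captured transcript) and 83 had at least 100. Rpl10l and Rpl3l had 0 UMIs, and Rpl39l had 0 in the EYFP positive and 4 in the EYFP negative library.

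The 2 groups were sorted EYFP positive and EYFP negative pancreatic cells, from mice of genotype R26[CA]30EYFP and strain C57Bl/6J, both taken after pancreatitis and both labelled as otherwise untreated. The mice carry a reporter at the Rosa26 locus, a site active in most cell types, in which EYFP stands behind a CA repeat and is read after the repeat's length has changed, so EYFP marks a past event in a cell and not a cell type. Each group was 1 single-cell library; the labels state neither how many animals were pooled nor how long after pancreatitis the cells were taken. There was therefore no replicate: every interval below covers counting error alone, no p-value was computed, and a difference between the groups cannot be told apart from a difference between the libraries.

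Each ribosome is built from a large and a small subunit, and the genes counted here encode their proteins. Their mRNAs belong to the 5′ terminal oligopyrimidine (TOP) class, which starts with a C followed by a run of C and T, and whose translation is raised and lowered together by mTOR signalling. They are short and abundant, and resting lymphocytes are known for giving a large part of their mRNA to them, whereas pancreatic acinar cells give most of theirs to digestive enzymes.

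The start regions of 66 members stood in the RefSeq promoter table (GRCm38.p6, first listed start per gene). A run of at least 8 C or T letters lay in the window from 15 bases before to 15 bases after the annotated start in 25 of these 66 members (37.9%), against 3205 of all 27025 genes in the table (11.9%). The letters CCGGAA, on either strand and anywhere in the 300-base window, occurred in 33 of the 66 members, against 4112 of all genes (15.2%). Read on the opposite strand they are TTCCGG, so they can overlap a pyrimidine run. These are matches of letters and not tests of a site. The windows below are shown for 8 of the members whose share of the ribosomal protein UMIs varied most between cell classes or libraries, 5′ to 3′ on the gene's strand, with the longest run of C and T in capitals. They lie at chr7:45128731-45128760 on the minus strand (Rpl13a), chr3:90213634-90213663 on the minus strand (Rps27), chr9:66946071-66946100 on the plus strand (Rps27l, the first of 2 listed starts), chr9:114982725-114982754 on the minus strand (Rps27rt), chr2:32961697-32961726 on the plus strand (Rpl12), chrX:74270801-74270830 on the plus strand (Rpl10), chr10:128549154-128549183 on the minus strand (Rpl41) and chr9:120127751-120127780 on the plus strand (Rpsa).
Rpl13a: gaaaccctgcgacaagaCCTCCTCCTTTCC
Rps27: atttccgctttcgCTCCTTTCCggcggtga
Rps27l: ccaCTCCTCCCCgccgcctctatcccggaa
Rps27rt: agaacttaTCCCTTgctttccggcggtgac
Rpl12: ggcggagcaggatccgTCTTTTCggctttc
Rpl10: gttgttacagtggaagataggccgCCTata
Rpl41: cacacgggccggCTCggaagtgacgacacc
Rpsa: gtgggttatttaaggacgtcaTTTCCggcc
The longest run was 13 letters in Rpl13a, 9 in Rps27 and in its paralog Rps27l, 7 in Rpl12 and 3 in Rpl10 and in Rpl41.

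The EYFP positive library gave 860 kept cells of 1717 barcodes, with 2745342 UMIs and a median of 1008 per cell. The EYFP negative one gave 553 of 745, with 4857210 UMIs and a median of 8020 per cell. Barcodes that were not kept gave 2.20% of their UMIs to the members in the EYFP positive and 0.647% in the EYFP negative library. The 2 libraries shared 4 barcode sequences, 2 of them among the kept cells. Cells were clustered without the members and named from other markers, so the classes (called "-like" because they rest on markers alone) were not made from the genes described. To compare cells of unequal depth, every cell was thinned at random to 500 UMIs before UMIs were summed per class and library.

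Summed over cells of all depths, T-like and B-like cells gave the largest parts of their transcripts to ribosomal proteins and acinar-like cells the smallest. In the EYFP positive library the thinned share was 25.3% in T-like cells (95% interval 25.1 to 25.6, 228 cells), 19.4% in B-like cells (113 cells) and 15.9% in NK or innate lymphoid-like cells (30 cells). It was 14.7% in fibroblast-like cells (64 cells), 14.1% in ductal or metaplastic epithelial-like cells (227 cells), 11.3% in macrophage or monocyte-like cells (51 cells), 8.34% in blood endothelial-like cells (58 cells) and 6.16% in acinar-like cells (88 cells). A single erythroid-like cell had 21.4%. The intervals of neighbours in this order did not overlap, except those of fibroblast-like cells (14.3 to 15.1) and ductal or metaplastic epithelial-like cells (13.9 to 14.3), which met, and B-like cells stood clear of NK or innate lymphoid-like cells (15.4 to 16.5). The order changed with depth. Among EYFP positive cells with 1000 to under 2000 UMIs the share was 11.8% in 19 B-like cells, 7 of them under 5%, which is below the 16.8% of 45 ductal or metaplastic epithelial-like cells, the 17.4% of 9 fibroblast-like cells and the 17.6% of 42 T-like cells. Between 2000 and under 5000 UMIs, 5 blood endothelial-like cells had 4.12% (3.38 to 4.97) and 37 acinar-like cells 4.38% (4.09 to 4.68).

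The EYFP negative library placed the same lymphoid classes on top. Its share was 36.5% in T-like cells (36.3 to 36.7, 389 cells), 28.0% in B-like cells (106 cells) and 23.2% in NK or innate lymphoid-like cells (14 cells). Macrophage or monocyte-like cells had 17% (10 cells), erythroid-like cells 13.8% (13 cells), blood endothelial-like cells 9.87% (11 cells) and fibroblast-like cells 7.43% (7 cells). With 2 ductal or metaplastic epithelial-like cells and 1 acinar-like cell, the values of 11.4% and 5.0% describe single cells rather than classes.

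**Figure D1:**
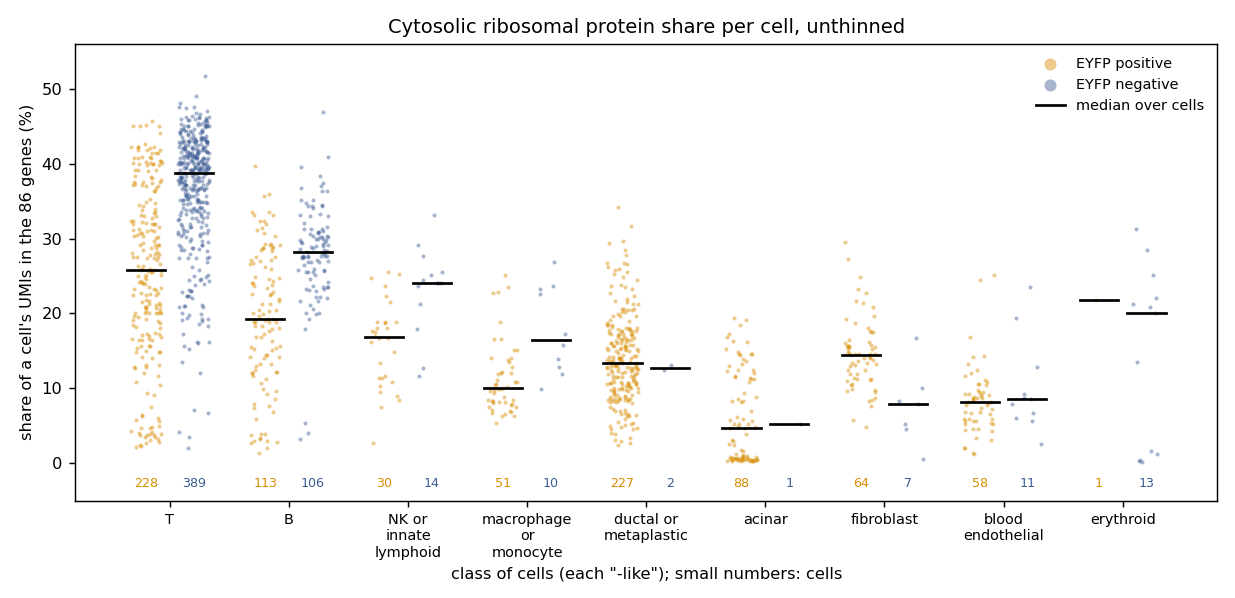
Share of each cell's UMIs in the 86 genes (percent, unthinned) by class; each point is 1 cell, bars are medians over cells, EYFP positive cells are left of EYFP negative cells in each class and the small numbers are cells. T-like cells have medians of 25.8% and 38.7%, and 47 of 88 EYFP positive acinar-like cells lie under 5%.

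Within a class the cells were spread widely. EYFP positive T-like cells ran from 2.20% to 45.7% with a median of 25.8%, and EYFP negative T-like cells ran from 2.06% to 51.7% with a median of 38.7%. Cells under 5% made up 20 of 228 EYFP positive and 3 of 389 EYFP negative T-like cells, with 9 and 1 cells between 4% and 6%. The 20 low EYFP positive cells had 14.4% mitochondrially encoded UMIs and 8.79% of Malat1, a long RNA held in the nucleus, against 6.41% and 2.68% in the other 208. The part of these differences in the ribosomal protein share was not tested.

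Acinar-like cells fell into a low and a higher range. Of 88 EYFP positive acinar-like cells, 47 gave under 5% of their UMIs to the members, and 10 lay between 4% and 6%. The 57 cells of cluster 11, led by the acinar transcription factor gene Rbpjl, had a share of 4.85% with 39 cells under 5%, 5.98% of UMIs from acinar secretory genes and 12.9% from Malat1. The 31 EYFP positive cells of cluster 15, led by the digestive enzyme genes Pnliprp1 and Cel, had a share of 8.58% with 8 cells under 5%, 59.8% acinar secretory UMIs and 0.219% Malat1. The cells under 5% carried less of the secretory genes (18.2% of thinned UMIs) than the cells at 5% or more (32.6%), and more Malat1 (12.6% against 3.67%). Cluster 18, the erythroid-like cells, also spread widely: 5 of its 13 EYFP negative cells were under 5%, with a summed share of 0.760%, whereas the other 8 had 21.9%. As many B cell as erythroid markers (8 each) passed in this cluster, so unlike cells may stand under 1 name. Its leading genes included Alas2 and Slc4a1, of heme synthesis and the red cell membrane, and the cell cycle genes Mki67 and Top2a.

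In the EYFP negative library the T-like clusters differed among themselves. Cluster 10, led by Cd8b1 of the CD8 co-receptor, had a share of 40.2% (39.8 to 40.6, 142 cells), and cluster 4, led by Cd3e and holding Cd40lg of helper T cells, had 38.6% (38.3 to 38.9, 173 cells). Cluster 17, whose leading genes include Foxp3 and Il2ra of regulatory T cells, had 24.5% (24 to 25, 60 cells). The EYFP positive cells of these clusters stood in the same order, with 38.2% in cluster 10 (23 cells), 34.8% in cluster 4 (37 cells) and 25.4% in cluster 17 (10 cells). Cells of 1 library share their source, so this order rests on 1 library of each kind.

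In 5 of the 6 classes with at least 7 cells in each library, the ribosomal protein share was lower in EYFP positive than in EYFP negative cells. T-like cells had 25.3% in the EYFP positive and 36.5% in the EYFP negative library (fold 0.694, 0.685 to 0.704), and B-like cells had 19.4% and 28.0% (fold 0.691, 0.675 to 0.709). NK or innate lymphoid-like cells had 15.9% and 23.2% (0.686), macrophage or monocyte-like cells 11.3% and 17% (0.662) and blood endothelial-like cells 8.34% and 9.87% (0.845, 0.770 to 0.929). The NK or innate lymphoid-like value compares different clusters. All 30 EYFP positive cells were cluster 6 (median 782 UMIs, at most 1953) and all 14 EYFP negative cells cluster 19 (median 8772 UMIs, at least 4885). This class could therefore not be compared at like cluster or depth. The endothelial value rests on 2 of the 11 EYFP negative cells, those of cluster 13, which had 21.7% against 8.73% in 35 EYFP positive cells of that cluster. In cluster 14, with the other 9 EYFP negative cells, the share was 7.76% in 23 EYFP positive and 7.24% in the 9 EYFP negative cells (1.07, 0.942 to 1.22). Fibroblast-like cells went the other way, with 14.7% in 64 EYFP positive cells and 7.43% in 7 EYFP negative cells (1.98, 1.75 to 2.25), and with 14.0% in 11 and 9.48% in 5 cells inside cluster 2 (1.47, 1.27 to 1.71). Over all kept cells the shares were 16.5% and 32.6% (0.507, 0.502 to 0.512), a value that mixes the classes: T-like cells were 228 of 860 EYFP positive and 389 of 553 EYFP negative cells.

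The classes were held by different clusters in the 2 libraries, and the clusters differ in depth. EYFP positive T-like cells lay mostly in cluster 8 (101 cells, median 965 UMIs) and cluster 0 (57 cells, median 683 UMIs). As many acinar as T markers (10 each) passed in cluster 0, so its name is less certain. Its EYFP positive cells had 8.09% acinar secretory UMIs and a member share of 18.7%. EYFP negative T-like cells lay mostly in cluster 4 (173 cells, median 7921 UMIs) and cluster 10 (142 cells, median 10349 UMIs). Within 1 cluster the libraries were closer. The share was 34.8% in EYFP positive and 38.6% in EYFP negative cells of cluster 4 (0.901, 0.877 to 0.926), 38.2% and 40.2% in cluster 10 (0.95, 0.920 to 0.981), 22.7% and 23.2% in cluster 8 (0.977, 0.926 to 1.03) and 25.4% and 24.5% in cluster 17 (1.03, 0.974 to 1.10). B-like cluster 3 had 23.8% in 55 EYFP positive and 28.5% in 104 EYFP negative cells (0.836, 0.812 to 0.861). The other B-like cluster, 5, had 58 EYFP positive cells with a share of 15.1% and 2 EYFP negative cells with 3.50%. Inside macrophage or monocyte-like cluster 7 the shares were 12.9% and 17% (0.756), and the 26 cells of the other cluster of this class, 16, all EYFP positive, carried the hemoglobin genes Hba-a1, Hba-a2 and Hbb-bs among their leading genes.

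**Figure D2:**
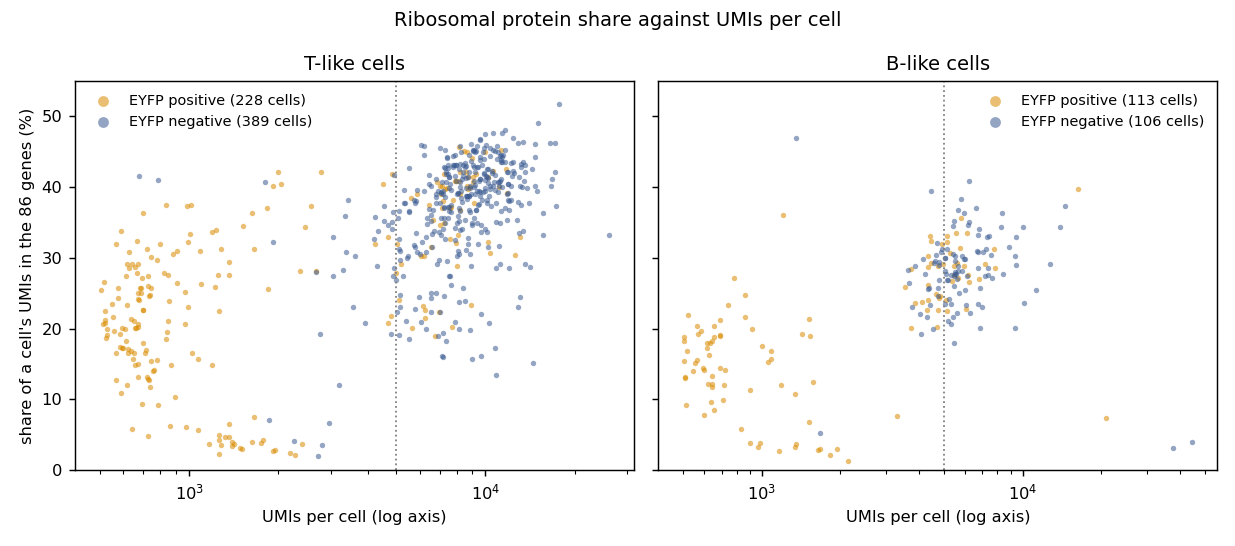
Share of a cell's UMIs in the 86 genes (percent) against UMIs per cell (log axis) for T-like cells (left) and B-like cells (right), each point 1 cell, with a dotted line at 5000 UMIs. To the right of the line the 66 EYFP positive and 353 EYFP negative T-like cells overlap, while the EYFP positive cells under 1000 UMIs have no EYFP negative group of like size.

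Among cells of like depth the libraries were closer. T-like cells with 5000 or more UMIs had a share of 35.9% in 66 EYFP positive and 37.4% in 353 EYFP negative cells (0.960, 0.941 to 0.979), and those with 2000 to under 5000 UMIs had 27.1% in 16 and 26.6% in 31 cells. The 104 EYFP positive T-like cells with 500 to under 1000 UMIs had 21.5%, and the 42 with 1000 to under 2000 UMIs had 17.6%, 16 of them under 5%. B-like cells with 5000 or more UMIs had 28.1% in 24 EYFP positive and 28.2% in 79 EYFP negative cells (0.998, 0.960 to 1.04), and EYFP positive B-like cells with 500 to under 1000 UMIs had 15.3% (47 cells). Macrophage or monocyte-like cells with 5000 or more UMIs had 15.3% in 13 EYFP positive and 17.2% in 9 EYFP negative cells. Under 2000 UMIs the EYFP negative library had fewer than 5 cells in each depth range of the 7 classes examined this way, so the libraries could not be set side by side there. Thinning equalises the number of UMIs drawn from a cell and leaves what they are made of.

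Other transcripts moved with this gap. The genes Gm42418, AY036118 and Lars2, whose counts can hold ribosomal RNA fragments, took 20.3% of thinned UMIs in EYFP positive and 0.466% in EYFP negative T-like cells. In B-like cells with 5000 or more UMIs they took 5.28% and 0.365%. Within the EYFP positive library they took 33.4% in T-like cells with 500 to under 1000 UMIs and 4.08% in those with 5000 or more. Acinar secretory genes took 3.04% in EYFP positive and 0.0129% in EYFP negative T-like cells, mitochondrially encoded genes took 7.11% and 4.90%, and Malat1 took 3.22% and 3.23%. Their part in the gap was not tested, and shares of a reduced total are given next. With the rRNA-related, acinar secretory and mitochondrially encoded genes taken out of the total, the member share was 36.4% in EYFP positive and 38.6% in EYFP negative T-like cells (0.945, 0.932 to 0.958) and 26.7% and 29.8% in B-like cells (0.898, 0.876 to 0.920). On the same reduced total NK or innate lymphoid-like cells had 26.1% and 24.4% (1.07), blood endothelial-like cells 12.4% and 10.6% (1.16), macrophage or monocyte-like cells 14.8% and 17.8% (0.832) and fibroblast-like cells 21.7% and 8.34% (2.61). In the last 2 classes the side of 1 was the same with either total, and in the NK or innate lymphoid-like and blood endothelial-like classes it was not.

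Gene by gene, a difference was counted where the fold of the thinned CPM (a gene's UMIs scaled by the total of the sum) was at least 1.5 in either direction, among genes with at least 30 thinned UMIs over both libraries. In T-like cells 30 of 81 tested members were lower in the EYFP positive library, which is 37.0% of them, and the same was true of 35.4% of all 1134 tested genes; 0 members were higher, against 4.76% of all genes. In B-like cells 29 of 80 members were lower (36.2%), against 31.2% of all 356 tested genes, and 0 were higher, against 8.99%. Among genes with at least 200 thinned UMIs the lower share was 36.7% of 79 members and 33.1% of 151 genes in T-like cells, and 33.3% of 60 members and 36.4% of 88 genes in B-like cells; 0 members were higher, against 9.93% of those genes in T-like and 3.41% in B-like cells. The members' shares are thus near those of all genes in both classes. The median fold was 0.723 over members and 0.751 over all genes in T-like cells, and 0.718 and 0.765 in B-like cells. All 81 and all 80 tested members had a fold below 1, against 903 of 1134 and 279 of 356 genes.

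Over all kept cells 77 of 82 members were lower, against 38.6% of all 2881 tested genes, and 1 was higher (Rps27l), against 12.8%. With at least 200 thinned UMIs these were 77 of 80 members and 54.4% of 307 genes. The classes are mixed in this sum, and the T-like cells rich in these transcripts are a larger part of the EYFP negative library. In T-like cells with 5000 or more UMIs 3 of 80 members (Rpl13a, Rpl14 and Rps28) were lower, against 16.2% of 783 genes, and 0 were higher, against 12.8%. In B-like cells of that depth 4 of 80 members were lower (Rpl38, Rpl6, Rps27 and Rps28), against 17% of 188 genes, and 4 were higher (Rpl23a, Rplp2 and Rps2 among them), against 6.91%.

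The make-up of the ribosomal protein UMIs was close between the libraries. Large-subunit symbols gave 51.8% of the thinned member UMIs in EYFP positive and 52.7% in EYFP negative T-like cells, 52.2% and 52.6% in B-like cells and 53.8% in EYFP positive acinar-like cells. In T-like cells, 69 of 81 members had a share of the member UMIs that differed by a fold between 0.8 and 1.25, in B-like cells 62 of 80. The interval of this fold lay above 1 for 18 members and below 1 for 15 in T-like cells, and above 1 for 6 and below 1 for 7 in B-like cells. Counts were not scaled to transcript length, so shares of different genes are not set against each other here.

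**Figure D3:**
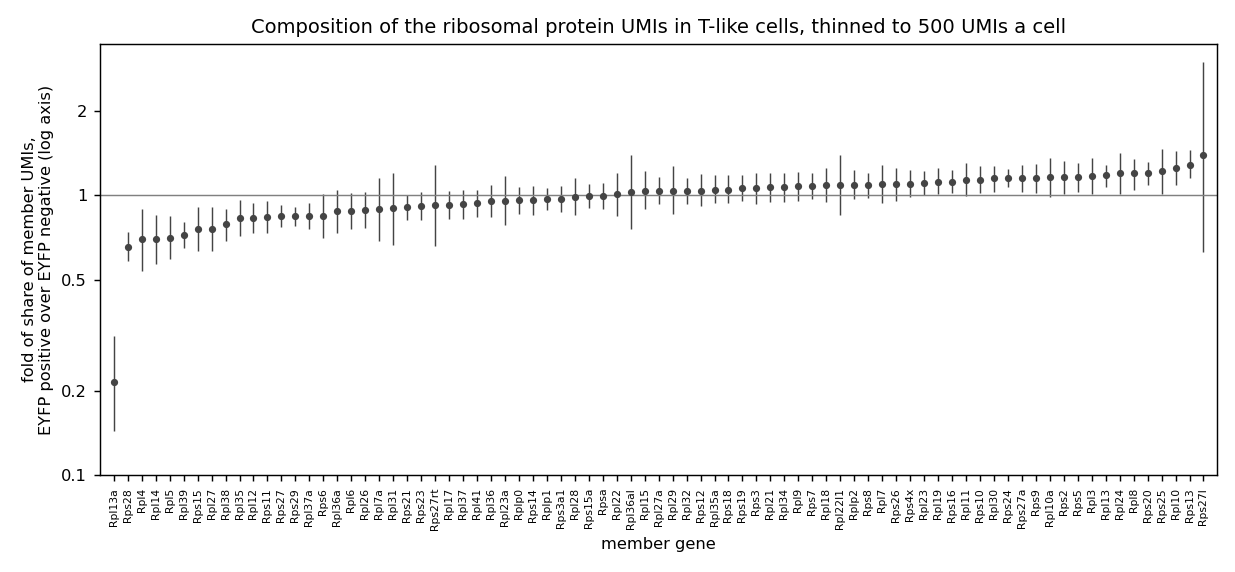
Fold of each member's share of the member UMIs in T-like cells, EYFP positive over EYFP negative (log axis), with 95% counting intervals, ordered by value. Rpl13a stands at 0.216, and most members lie between 0.8 and 1.25.

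The stalk proteins Rplp0, Rplp1 and Rplp2, which recruit the elongation factors to the large subunit, kept close shares in T-like cells. Rplp0 held 1.55% of the member UMIs in EYFP positive and 1.61% in EYFP negative T-like cells (0.960, 0.859 to 1.07), Rplp1 held 2.44% and 2.52% (0.971, 0.889 to 1.06) and Rplp2 held 1.45% and 1.33% (1.09, 0.973 to 1.23). In B-like cells Rplp2 held 1.39% and 0.978% (1.42, 1.13 to 1.80), the highest fold of the tested members there, and Rplp0 held 1.09% and 0.917% (1.19, 0.920 to 1.53).

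Among large-subunit genes several had a lower part of the member UMIs in EYFP positive cells. Rpl39, a small protein of the peptide exit tunnel, held 1.61% in EYFP positive and 2.23% in EYFP negative T-like cells (0.722, 0.650 to 0.801) and 1.87% and 2.45% in B-like cells (0.760, 0.637 to 0.905). Rpl5, which carries the 5S RNA into the large subunit and binds Mdm2, held 0.578% and 0.818% in T-like cells (0.706, 0.591 to 0.841), and Rpl4, of the exit tunnel wall, held 0.280% and 0.403% (0.696, 0.537 to 0.894). Rpl14 held 0.436% and 0.624% in T-like cells (0.699, 0.569 to 0.854). Rpl38, known in the mouse for its part in translating Hox mRNAs, held 1.20% and 1.66% in B-like cells (0.722, 0.580 to 0.897), and Rpl6 held 0.851% and 1.21% there (0.705, 0.543 to 0.910). Among cells with 5000 or more UMIs the T-like fold of Rpl5 was 0.941 and the B-like fold of Rpl39 was 0.929, nearer to 1. At that depth Rpl14 in T-like cells, and Rpl38 and Rpl6 in B-like cells, were still at least 1.5-fold lower in CPM, as named above.

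Other large-subunit genes had a higher part in EYFP positive cells. Rpl10, which joins late in the assembly of the large subunit, held 1.03% in EYFP positive and 0.821% in EYFP negative T-like cells (1.25, 1.09 to 1.44). Rpl8 held 1.28% and 1.07% in T-like cells (1.20, 1.05 to 1.35). Rpl13 held 2.20% and 1.87% in T-like cells (1.18, 1.07 to 1.29) and 2.50% and 1.96% in B-like cells (1.27, 1.07 to 1.51). In B-like cells Rpl23 held 2.18% and 1.75% (1.25, 1.04 to 1.49).

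Of the small-subunit genes, Rps28 held 1.19% of the member UMIs in EYFP positive and 1.81% in EYFP negative T-like cells (0.656, 0.581 to 0.740) and 1.11% and 1.81% in B-like cells (0.612, 0.490 to 0.762). It was lower also among cells of both classes with 5000 or more UMIs, as named above. Rps27, a zinc finger protein, held 2.18% and 2.58% in T-like cells (0.842, 0.768 to 0.923) and 2.56% and 3.63% in B-like cells (0.706, 0.609 to 0.817), and Rps29 held 2.85% and 3.39% in T-like cells (0.842, 0.777 to 0.912). Rps13 held 1.57% and 1.21% in T-like cells (1.29, 1.15 to 1.45), Rps20 held 2.33% and 1.94% (1.20, 1.09 to 1.32) and Rps24 held 3.54% and 3.07% (1.15, 1.07 to 1.24). In B-like cells Rps2 held 1.31% and 0.944% (1.39, 1.09 to 1.76) and Rps9 held 1.64% and 1.32% (1.24, 1.01 to 1.53). Rpsa, also known as a laminin receptor, held 1.68% in both libraries in T-like cells (0.995, 0.894 to 1.11), and Rps15a held 2.00% and 2.02% (0.994, 0.901 to 1.10). Rps16 held 2.18% and 1.94% in T-like cells (1.12, 1.02 to 1.23), a fold that a second random thinning put at 0.995.

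Rpl13a was the member that differed most between the libraries. It lies at chr7:45125558-45128761 on the minus strand (GENCODE M21, GRCm38), encodes a large-subunit protein studied in human myeloid cells for a role in holding back translation of chosen mRNAs, and carries small nucleolar RNAs in its introns. In T-like cells it had 30 thinned UMIs in the EYFP positive and 341 in the EYFP negative library, a CPM fold of 0.150 (0.0997 to 0.218) and a fold of its share of the member UMIs of 0.216 (0.144 to 0.314). B-like cells had 15 and 51 thinned UMIs (0.276, 0.144 to 0.498). Unthinned, Rpl13a made up 0.145% of the member UMIs of EYFP positive T-like cells (343 UMIs) and 0.447% of those of EYFP negative T-like cells (5703 UMIs). In B-like cells these were 0.111% and 0.397%, in macrophage or monocyte-like cells 0.128% and 0.320% and in ductal or metaplastic epithelial-like cells 0.137% in 227 EYFP positive cells and 0.326% in 2 EYFP negative cells.

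A count of at least 5000 member UMIs was reached by 13 class and library groups, 1 of which is the 2 EYFP negative ductal or metaplastic epithelial-like cells. The 7 EYFP positive groups ran from 0.0993% to 0.145% for Rpl13a and the 6 EYFP negative groups from 0.291% to 0.447%, so the ranges did not meet. Rpl13a was the 1 member of 83 with at least 100 UMIs that was lower in every EYFP positive than in every EYFP negative group. Rps4x, an X-linked small-subunit gene, was the 1 member that was higher in every EYFP positive group (1.47% to 1.97%, against 1.33% to 1.45%). The groups of the 2 libraries are partly of different classes. Within a class, the thinned fold of the Rps4x share of the member UMIs was 1.10 (0.984 to 1.23) in T-like cells. In B-like cells it was 1.04 (0.836 to 1.28), and both intervals hold 1. Without the group of 2 cells, a choice made after seeing the data, 5 EYFP negative groups of at least 10 cells remained. They spanned the same values for Rpl13a and Rps4x, and 2 further members then also had EYFP positive groups all below the EYFP negative ones. These ranges nearly met, at 0.410% to 0.716% against 0.718% to 1.00% for Rpl27 and at 1.40% to 1.86% against 1.87% to 2.34% for Rpl39. In T-like cells with 5000 or more UMIs Rpl13a had 18 and 315 thinned UMIs (0.306, 0.179 to 0.491), and in B-like cells of that depth it had 8 and 37 (0.712, 0.286 to 1.55), an interval that holds 1. The pseudogene Rpl13a-ps1, whose sequence is close to it, had 2 UMIs in the EYFP positive and 37 in the EYFP negative library.

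**Figure D4:**
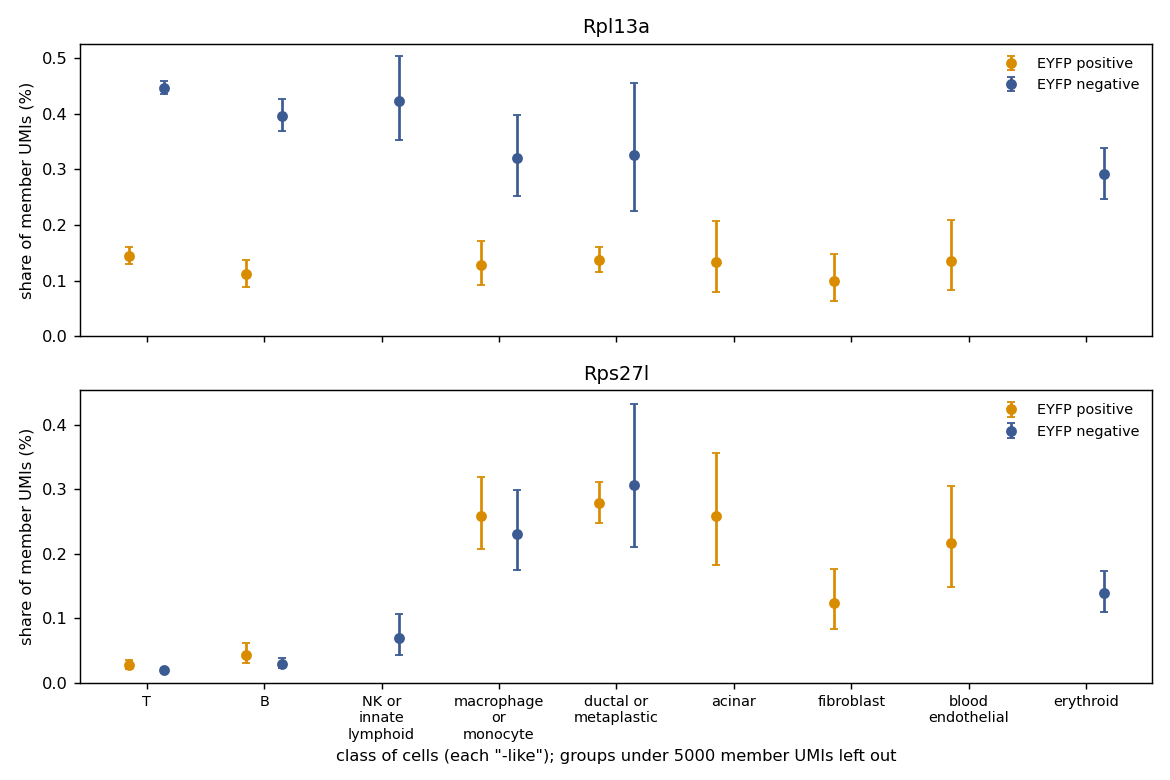
Share of the member UMIs (percent, unthinned, 95% counting intervals) held by Rpl13a (top) and Rps27l (bottom) in each class, EYFP positive left of EYFP negative, for groups with at least 5000 member UMIs; the EYFP negative ductal or metaplastic epithelial-like group is 2 cells. Rpl13a separates the libraries, at 0.0993% to 0.145% against 0.291% to 0.447%, and Rps27l is lower in T-like and B-like cells than in the other classes shown.

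Across the same 13 groups most members varied little. The ratio of the highest to the lowest share of the member UMIs had a median of 1.64 over the 83 members, was lowest for Rpl34 (1.21) and stayed under 2 for 60 members. It was 3 or more for 5 members: Rpl13a (4.50), and the paralogs or binding protein Rps27l (15.5), Rps19bp1 (6.05), Rps27rt (3.25) and Rpl7l1, whose lowest group held 1 UMI. Without the group of 2 cells the same 5 members were at 3 or more, the ratio of Rps27l was 14.1 and the median 1.62.

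Rps27l, a paralog of Rps27 that p53 induces, varied mainly between cell classes. It lies at chr9:66946086-66949516 on the plus strand (GENCODE M21, GRCm38). Rps27l held 0.0271% of the member UMIs in EYFP positive and 0.0198% in EYFP negative T-like cells, and 0.0435% and 0.0295% in B-like cells. In ductal or metaplastic epithelial-like cells Rps27l held 0.279% (227 EYFP positive cells) and 0.307% (2 EYFP negative cells), in macrophage or monocyte-like cells 0.259% and 0.231%, in EYFP positive acinar-like cells 0.259% and in EYFP positive blood endothelial-like cells 0.216%. Between these stood EYFP positive fibroblast-like cells with 0.124%, EYFP negative erythroid-like cells with 0.139% and EYFP negative NK or innate lymphoid-like cells with 0.0696% for Rps27l. Unthinned, Rps27l had 593 EYFP positive and 519 EYFP negative UMIs. It was the 1 member above 1.5-fold over all kept cells, where the CPM fold was 1.98 (1.26 to 3.21) on 80 and 26 thinned UMIs.

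Its partner Rps27 held a larger part in T-like and B-like cells than in the non-lymphoid classes named next. Rps27 held 2.44% of the member UMIs in EYFP positive and 3.29% in EYFP negative B-like cells, 2.06% and 2.65% in T-like cells, 1.57% in 227 EYFP positive and 1.72% in 2 EYFP negative ductal or metaplastic epithelial-like cells, 1.16% and 1.75% in macrophage or monocyte-like cells and 1.13% in EYFP positive acinar-like cells. Rps27rt, a further copy whose sequence is close to Rps27 and with which it may share reads, held 0.184% and 0.242% in B-like cells and 0.0910% in EYFP positive acinar-like cells, so its value is uncertain.

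The other paralogs had patterns of their own. Rpl22l1, a paralog of Rpl22, which is needed for T cell development in the mouse, held 0.341% of the member UMIs in EYFP positive and 0.317% in EYFP negative T-like cells, 0.239% and 0.240% in B-like cells and 0.451% in 227 EYFP positive and 0.442% in 2 EYFP negative ductal or metaplastic epithelial-like cells. Rpl36al, a paralog of Rpl36a, held 0.203% and 0.237% in T-like cells, 0.417% in ductal or metaplastic epithelial-like cells of the EYFP positive library and 0.442% in the 2 of the EYFP negative one, and 0.490% in EYFP positive acinar-like cells. Rpl7l1, a paralog of Rpl7, held 0.0102% and 0.0132% in T-like cells and 0.0592% in EYFP positive ductal or metaplastic epithelial-like cells (65 UMIs, 0.0457 to 0.0754). Rps19bp1, which binds Rps19 and is also known as a regulator of Sirt1, had 76 UMIs in the EYFP positive and 119 in the EYFP negative library. Rpl10l and Rpl39l, known from testis, and Rpl3l, known from heart and skeletal muscle, had at most 4 UMIs, as given above.

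**Figure D5:**
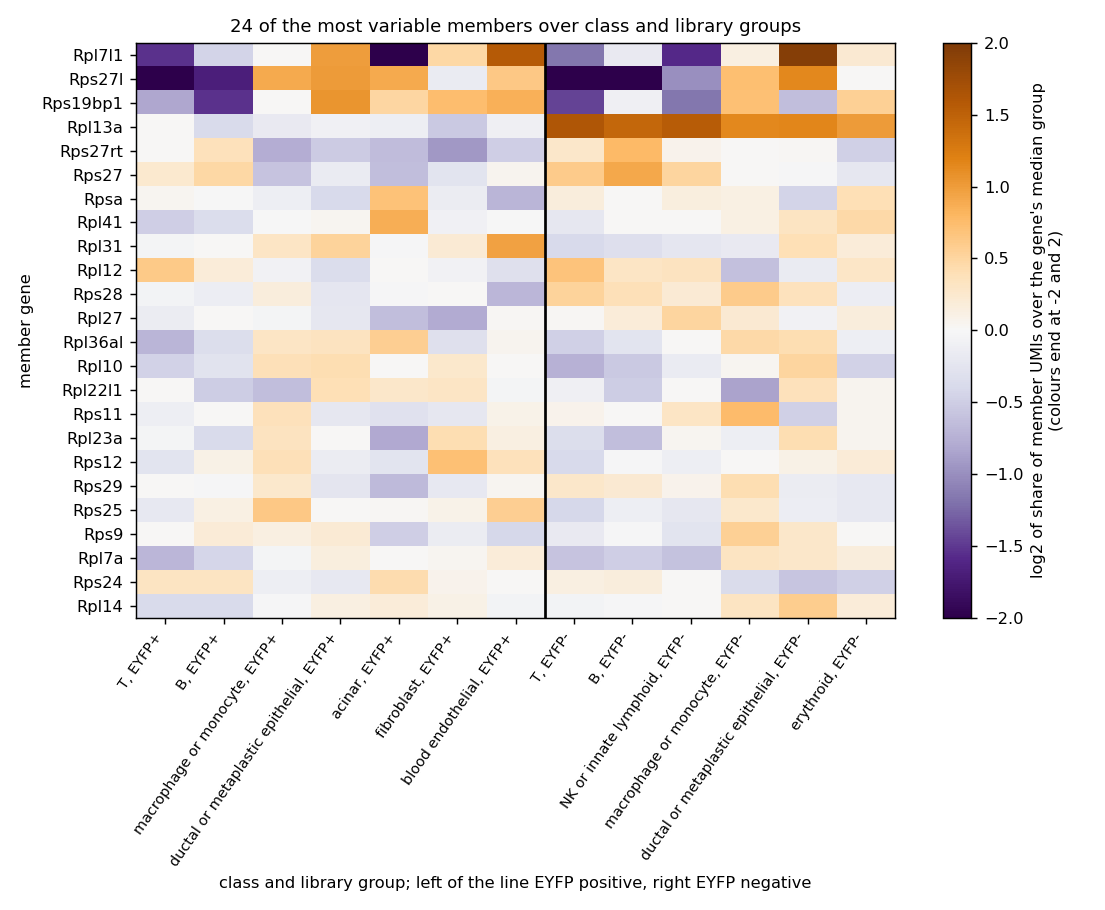
Log2 of each member's share of the member UMIs over its median group, for 24 members with a high ratio of highest to lowest share, in the 13 class and library groups with at least 5000 member UMIs, EYFP positive left of the line and EYFP negative right of it, where the ductal or metaplastic epithelial-like column is 2 cells. Rps27l is low in the T-like and B-like columns of both sides, and Rpl13a is high in every EYFP negative column.

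Several core genes also varied by class. Rpl41, which encodes the shortest of the ribosomal proteins, held 3.69% of the member UMIs in EYFP positive acinar-like cells (3.39 to 4.02), against 1.43% in EYFP positive and 1.74% in EYFP negative T-like cells. Rpsa was likewise highest in EYFP positive acinar-like cells, at 2.53% (2.28 to 2.80), and lowest in EYFP positive blood endothelial-like cells, at 0.960%. For Rpl10 the ductal or metaplastic epithelial-like cells stood at 1.73% in the EYFP positive library (227 cells) and 1.84% in the EYFP negative library (2 cells), and the T-like cells at 0.940% and 0.779%. Rpl12, of the stalk base, was highest in T-like cells, with 1.47% and 1.54%, and lay at 0.749% in 227 EYFP positive and 0.855% in 2 EYFP negative ductal or metaplastic epithelial-like cells. Rps12 was highest in EYFP positive fibroblast-like cells, at 2.58% (2.39 to 2.79), against 1.32% in EYFP positive and 1.20% in EYFP negative T-like cells. Rpl31 was highest in EYFP positive blood endothelial-like cells, at 0.595%. Acinar secretory genes took 24.9% of the thinned UMIs of EYFP positive acinar-like cells, and the part of that in their member shares was not tested.

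Genes that work with the ribosome but fall outside the symbol rule also had folds below 1. Fau, a fusion of a ubiquitin-like protein to a small-subunit protein, had folds of 0.763 in T-like and 0.690 in B-like cells, and Rack1, a scaffold on the small subunit, had 0.647 and 0.744. Among the members, Rps27a, the ubiquitin fusion of the small subunit, had 0.799 and 0.836.

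The translation lists differed in how many of their genes passed 1.5-fold. In T-like cells 4 of 5 elongation factors were at least 1.5-fold lower in the EYFP positive library (median fold 0.614), as were 5 of 11 other TOP mRNAs (0.690), 5 of 11 tested initiation factors (0.678), 2 of 7 tested ribosome biogenesis genes (0.824) and 2 of 6 tested mitochondrial ribosomal proteins (0.699), against 35.4% of all genes and a median of 0.751. With 7 and 6 tested genes, the biogenesis and mitochondrial ribosomal protein lists were too small to be set apart from the share of all genes. Eef1a1, which brings aminoacyl-tRNA to the ribosome, had 554 and 1632 thinned UMIs there (0.579, 0.525 to 0.638), and Tpt1, a TOP mRNA of a tubulin-binding protein, had 802 and 2250 (0.608, 0.560 to 0.659). In B-like cells 1 of 4 tested elongation factors (median 0.721), 3 of 7 other TOP mRNAs (0.708), 0 of 3 initiation factors (0.985) and 0 of 1 biogenesis gene (0.938) were at least 1.5-fold lower, against 31.2% of all genes and a median of 0.765, and 0 mitochondrial ribosomal proteins reached 30 UMIs. None of these lists had a gene at least 1.5-fold higher in either class, against 4.76% of all tested genes in T-like and 8.99% in B-like cells. Neither of the 2 snoRNA host genes in the table reached 30 UMIs in these classes.

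In the other direction, 7 of 12 tested mitochondrially encoded genes were at least 1.5-fold higher in EYFP positive T-like cells (median 1.61). So were all 3 rRNA-related genes (median 46.2) and all 19 tested acinar secretory genes. Of all tested genes in T-like cells, 4.76% were higher and 35.4% lower. Of the 3 tested nuclear-retained RNAs, 0 were higher and 1 was lower, and the median fold of the 3 was 0.952. In B-like cells 3 of 11 mitochondrially encoded genes were higher and 1 was lower, with a median fold of 1.10 over the list. Of the 3 rRNA-related genes 2 were higher and 1 was lower, and all 13 tested acinar secretory genes were higher. The 1 tested nuclear-retained RNA was neither (fold 1.10). Of all tested genes in B-like cells, 8.99% were higher and 31.2% lower.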

How the data were processed

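The authors deposited UMI counts for each gene in each barcode as whole numbers, for 2 libraries and with no sign of normalization in the values. The Chromium Single Cell 5′ kit was used, per the labels' protocols, with a lane for each library, but which transcript end was read is not settled. Cell Ranger 2.1.0 and GRCh38 are named, per the submitters' processing notes, whereas version 3.1.0 and mouse identifiers stand in the tables, per the file headers, so the mapping build is treated as unknown. Gene coordinates were looked up by identifier in GENCODE M21. No reporter transcript stands in the table used here.

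A barcode was kept if it had 200 or more genes and a mitochondrial share of 20% or less. They were clustered with scanpy 1.11.5 in Python 3.11.15 without the members (genes in at least 3 cells, counts scaled to 10000 per cell, log1p, 2000 variable genes, 30 principal components, 15 neighbours, Leiden resolution 1.5, no batch correction). No doublets were removed (Scrublet called 2 cells of the EYFP positive and 5 of the other library). For a class name, at least 3 fixed markers had to reach 5 UMIs and a 2-fold excess. The resolution and the way ties between names were settled were chosen after the clusters were seen, since a lower resolution fused T-like with macrophage-like cells. Neither choice used the members' shares.

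Each cell was thinned to 500 UMIs (every barcode held at least 500), and thinned UMIs were summed per class and library. Shares carry exact Clopper-Pearson and folds exact conditional binomial 95% intervals, which treat UMIs as independent and cover counting error only. A fold of 1.5 was used as a description among genes with at least 30 thinned UMIs. Composition over groups used unthinned UMIs. The calculation of folds and intervals was checked on simulated independent counts with known answers. The simulation had no variation between cells, so it does not show how the intervals behave with such variation. With 1 library per group no test between groups exists.

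The named members are the 10 with the most UMIs, the stalk genes and Rpsa, for T-like and B-like cells up to 6 each way by the interval bound nearest to 1 of the share of member UMIs, the 8 with the largest ratio over groups, and all paralogs. Other genes are up to 4 per list with the most UMIs. Some genes outside the rule (such as Rps4x, Rps12, Rpl12, Rpl31 and Rps27a) were chosen after their values were seen. A few named or listed genes are left out of text and figures. The members, lists and markers were chosen with earlier results of these data known.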

Additional observations from a re-analysis of the deposited data

Results flagged for a closer look

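The 9 genes with "-ps" in their symbols, which the symbol rule leaves out, held 494 UMIs in EYFP positive and 1163 in EYFP negative kept cells. They are listed here as a signal in rows that no comparison above uses. Rpl10-ps3 had the most, with 266 and 646 UMIs.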

How the results depend on the processing

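No paired analysis was possible because each group is 1 library, and for the same reason no replicate could be left out. The fold of the member share, EYFP positive over EYFP negative, stayed below 1 in T-like, B-like and all kept cells under every alternative run. In B-like cells with 5000 or more UMIs, however, its interval held 1 (0.960 to 1.04). Inside the range of 2000 to under 5000 UMIs, EYFP positive and EYFP negative T-like cells had 27.1% and 26.6%, and B-like cells had 24.7% and 27.5%. The size of the fold changed with the setting. Without thinning the fold was 0.875, 0.931 and 0.574 in T-like, B-like and all kept cells. Without also the cell with the most member UMIs it was 0.872, 0.908 and 0.564. In B-like cells 82264 of the 717730 unthinned EYFP negative UMIs came from the 2 cells of cluster 5, at a member share of 3.62%. The other 104 cells had 28.9%, against 26.0% in the whole class, so the unthinned B-like fold leans on these 2 cells. Thinned to 1000 UMIs (shallower cells left out) the fold was 0.787, 0.791 and 0.554, and to 2000 UMIs 0.938, 0.947 and 0.610. With a stricter filter (500 or more genes, mitochondrial share of 10% or less) it was 0.905, 0.918 and 0.628, and with the reduced total 0.945, 0.898 and 0.717. Every barcode together gave 0.393. A second random thinning gave 0.673 in B-like cells, clustering with the members 0.753 and resolution 0.5 0.710 in T-like cells. In the main run 30 T-like and 29 B-like members were past 1.5-fold, and 5 and 6 were past 2-fold. Members past 1.5-fold numbered 2 and 3 without thinning, 14 and 12 at 1000 UMIs, and 4 and 1 at 2000 UMIs. They numbered 4 and 6 with the stricter filter, and 4 and 6 with the reduced total. The share of all tested genes is not given at 2-fold or for these settings. These counts therefore neither set the members apart from other genes nor show a change particular to the members. That share can move too. In T-like cells 35.4% of all tested genes were lower in the main run and 16.2% at 5000 or more UMIs, and 4.76% and 12.8% were higher. Of alternatives chosen after seeing the data, cells with at least 5000 UMIs gave folds of 0.960, 0.998 and 0.669 with 3 and 8 members past 1.5-fold, and T-like clusters 4, 10 and 17 and B-like cluster 3 alone gave 0.935 and 0.836 with 3 and 9. The cause was not tested. Several of these settings leave out shallow cells or give them less weight, and depth differs between the libraries. Among folds of single members, that of Rps16 in T-like cells passed to the other side of 1 with the second thinning, at 0.995.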
